A study of Mus musculus with 40 samples.

Results

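After 8 days of adipogenic induction, lines of brown fat cells still differed in how much Mki67 RNA they carried. Mki67 encodes the nuclear protein Ki-67, which coats mitotic chromosomes and is made by cycling cells and lost from resting ones. The 5 lines with the highest Mki67 at day 8 (D4, D3, A2, B4 and C5, the high lines) were set against the 5 with the lowest (B5, D6, A6, B1 and B3, the low lines), and the same 10 lines were then looked up before induction. The lines were chosen by their measured day 8 level of Mki67 in CPM, the raw Mki67 count divided by the sum of all gene counts of the library, times 1000000. These 10 of 20 lines gave 20 of the 40 libraries, 1 undifferentiated and 1 day 8 library for each line.

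All 20 lines are immortalised cells from brown adipose tissue of C57BL/6 mice, used between passages 6 and 12, per the labels. For day 8, every line received the same induction mixture of IBMX (a phosphodiesterase inhibitor), dexamethasone (a glucocorticoid), indomethacin (a cyclooxygenase inhibitor), T3 (thyroid hormone) and insulin, followed by medium with T3 and insulin renewed every 2 days. Undifferentiated libraries come from the growing cells. RNA was poly(A) selected and sequenced as 100 bp read pairs. The labels do not say what the letters in the line names stand for, and each line was sequenced once per stage, so p-values over lines measure the spread between lines. In these bulk libraries, fewer cells of a type and less RNA per cell cannot be told apart.

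Cells that become fat cells normally leave the cell cycle. Preadipocytes that have stopped growing can re-enter it briefly after the hormonal cocktail, a phase called mitotic clonal expansion, and then stop as Pparg and Cebpa switch on the fat-cell genes. In cycling cells, E2F factors drive genes of DNA replication at the G1 to S transition, and Foxm1 with the B-Myb MuvB complex drives genes of mitosis later on. In resting cells the DREAM complex of the same MuvB core with p130 and E2F4 holds many of these genes down.

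At day 8 Mki67 stood at 439 CPM in D4, 342 in D3, 341 in A2, 324 in B4 and 288 in C5, the high lines. It stood at 187 CPM in B5, 181 in D6, 178 in A6, 164 in B1 and 86.9 in B3, the low lines. These values chose the lines and are given as a description, with no test. D4 at the top and B3 at the bottom stood clear of their groups, whereas the edges were narrow: C5, the last high line, had 288 CPM and C3, the first line outside, 279, and B5, the last low line, had 187 CPM and D2, the first outside, 193. The 10 lines in between ran from 193 to 279 CPM. C6 and D5, the lines lowest in Pparg, are among them.

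**Figure D1:**
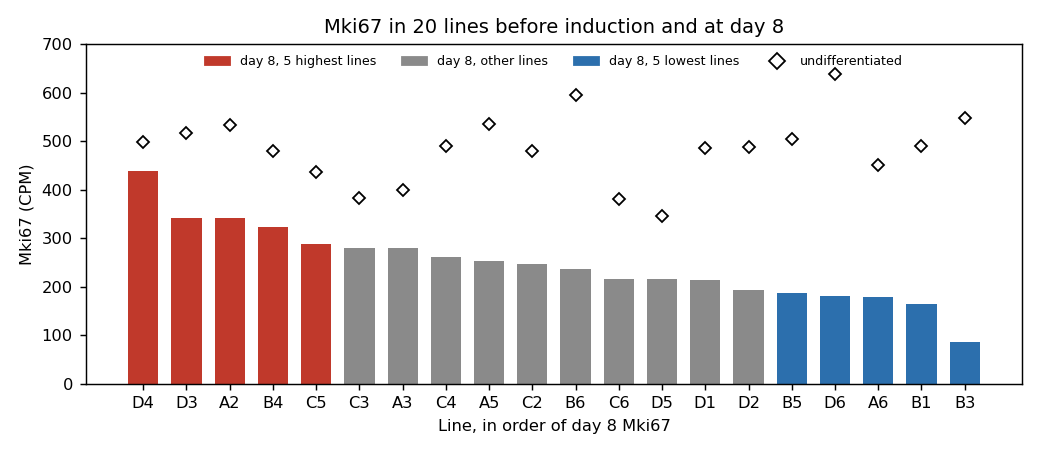
Mki67 in CPM (vertical axis, from 0) for each of the 20 lines in order of day 8 level. Bars give day 8 in red for the 5 highest, grey for the 10 other and blue for the 5 lowest lines, and open diamonds give the undifferentiated library of the same line: D6, a low line at day 8 with 181 CPM, has the highest diamond at 638 CPM.

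Before induction the ranking was another one. The high lines D4, D3, A2, B4 and C5 had 499, 516, 532, 480.2 and 437 CPM of Mki67, and the low lines B5, D6, A6, B1 and B3 had 504, 638, 452, 491 and 548 CPM. The groups overlapped throughout, and 2 low lines, D6 and B3, ranked 1 and 3 among all 20. The means were 493 ± 36.7 CPM (SD, n = 5) in the high and 527 ± 71.4 CPM (SD, n = 5) in the low lines, a difference of -0.09 on the scale of log2(CPM + 0.5), smaller than the spread between lines (exact permutation test over 252 assignments, two-sided, p = 0.421; the smallest p this design allows is 0.00794). The day 8 level was 0.640 to 0.880 of the undifferentiated level in the high lines and 0.159 to 0.394 in the low lines, a ratio that contains the values used to rank the lines. Files of the 2 stages were counted differently, so that the size of any change between stages cannot be told apart from the counting. The ratios are read here between lines.

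Sequencing depth was similar in both groups. Gene counts summed to between 29104863 and 42431078 in the day 8 libraries of the high lines and between 27181830 and 36292665 in those of the low lines, and to 22147674 to 28074918 and 21494011 to 26875388 before induction. A level of 3 counts, taken as the limit of detection, was 0.0707 to 0.110 CPM in these day 8 libraries, and such limits cover counting error only. C5 and B3 stood apart from their groups in several genes at day 8. C5 was lowest in Pparg with 222 CPM among high lines of 473 to 569.6, and B3 was highest in Ucp1 with 25.2 CPM among low lines of 0.201 to 3.94, so list counts and medians without either line are given below where they move by over 1.5 times or turn in sign.

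Genes of mitosis were higher in the high lines almost throughout the list. Of 40 mitosis genes, 39 passed the filter on low counts and Cenpa was listed at 0 in all libraries. In 34 of the 39 all 5 high libraries lay above all 5 low libraries, 38 differences were positive, and the median was 0.74 on the scale of log2(CPM + 0.5). Over all 15078 genes tested at day 8, 546 had the high libraries above the low ones (3.62%) and 379 had them below (2.51%), the median difference was 0.05, and 56.1% of differences were positive. Because Mki67 of these libraries chose the lines and mitosis genes vary with it, the share is a description of what came with the ranking. Summed over the list, mitosis RNA ran from 4825 to 6020 CPM in the high lines, from 3112 to 5180 in the 10 others and from 2677 to 3403 in the low lines.

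Foxm1, the forkhead factor that drives mitosis genes, had 202, 178, 155, 183 and 177 CPM in D4, D3, A2, B4 and C5 and 86.3, 71.3, 103, 84.0 and 59.6 CPM in B5, D6, A6, B1 and B3. The high lines averaged 179 ± 16.8 CPM (SD, n = 5) against 80.8 ± 16.3 in the low lines, a difference of 1.16 (log2), as large as that of Mki67 itself. Every high line lay above every low line. Top2a, the topoisomerase that untangles chromosomes, had 659.6, 483, 575, 551 and 465 CPM in the high lines and 320.3, 333, 331, 208 and 214 CPM in the low lines in the same order, a difference of 0.98. Ccna2, the cyclin of S and G2 phase, had 220.4, 217, 243, 212 and 249 CPM against 109, 113, 138, 106 and 95.4 CPM, a difference of 1.03. The high lines kept within a narrow band for Ccna2 and C5, lowest of them in Mki67, was its highest.

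Cdk1, the kinase that starts mitosis, had 352 CPM in D4 and 223 to 234 CPM in the other high lines, against 139 to 163 CPM in the low lines. Ccnb1, its cyclin partner, had 186, 141, 149, 169.9 and 159 CPM in the high lines and 81.3, 94.7, 99.1, 98.8 and 68.0 CPM in the low lines, a difference of 0.87. The 5 mitosis genes whose groups overlapped were Pttg1, Mad2l1, Ube2c, Anln and Mybl2. Pttg1, the securin that keeps sister chromatids together, was the only one with a negative difference (51.5 ± 6.16 CPM in the high against 63.6 ± 9.62 in the low lines, SD, n = 5, -0.30). Mad2l1, a spindle checkpoint protein, had 118 ± 20.2 against 113 ± 23.3 CPM. Without any 1 of the 10 lines, 34 to 36 of the 39 genes kept the groups apart, with 36 when C5 and 34 when B3 was left out; without B1, 1 gene also had the high libraries below.

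The promoters of some of these genes are shown because nearly the whole mitosis list separated the groups at day 8. In mammals the CHR element, TTTGAA, is bound by the MuvB core of the DREAM and the Foxm1 complexes, and CCAAT is bound by NF-Y. Each sequence holds 250 bases before and 50 after the gene's start in RefSeq, build GRCm38.p6, written along the gene's strand, with TTTGAA and CCAAT on either strand in capitals; Plk1 and Cdc20, a mitotic kinase and the activator of the anaphase-promoting complex, were chosen for display after their values were seen. The Mki67 sequence lies at chr7:135716330-135716629 on the minus strand, Plk1 at chr7:122159185-122159484 on the plus strand, Cdc20 at chr4:118437294-118437593 on the minus strand and Ccnb1 at chr13:100786437-100786736 on the minus strand.
Mki67: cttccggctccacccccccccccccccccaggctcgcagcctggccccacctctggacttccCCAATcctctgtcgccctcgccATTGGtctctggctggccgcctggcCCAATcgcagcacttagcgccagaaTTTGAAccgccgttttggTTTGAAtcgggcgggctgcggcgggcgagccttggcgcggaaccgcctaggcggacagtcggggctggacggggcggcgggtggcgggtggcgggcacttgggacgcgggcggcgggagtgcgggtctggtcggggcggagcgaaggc
Plk1: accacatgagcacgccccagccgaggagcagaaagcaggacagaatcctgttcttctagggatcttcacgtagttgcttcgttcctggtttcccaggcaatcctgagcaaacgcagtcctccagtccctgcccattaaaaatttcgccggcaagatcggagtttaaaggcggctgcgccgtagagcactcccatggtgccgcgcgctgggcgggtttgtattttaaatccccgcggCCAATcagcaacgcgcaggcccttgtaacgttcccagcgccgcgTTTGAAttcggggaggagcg
Cdc20: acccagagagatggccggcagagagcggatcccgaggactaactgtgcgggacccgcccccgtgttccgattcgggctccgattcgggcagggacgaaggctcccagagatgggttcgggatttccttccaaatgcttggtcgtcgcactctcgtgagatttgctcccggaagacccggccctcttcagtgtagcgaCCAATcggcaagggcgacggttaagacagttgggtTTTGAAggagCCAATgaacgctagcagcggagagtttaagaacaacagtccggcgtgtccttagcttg
Ccnb1: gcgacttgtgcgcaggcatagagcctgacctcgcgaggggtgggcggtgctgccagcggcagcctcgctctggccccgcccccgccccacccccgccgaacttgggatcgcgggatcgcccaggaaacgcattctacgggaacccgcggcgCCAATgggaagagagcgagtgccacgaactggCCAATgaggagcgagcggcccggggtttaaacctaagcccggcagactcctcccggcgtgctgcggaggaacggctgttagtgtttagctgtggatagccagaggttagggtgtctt
TTTGAA occurs in 2 places in the Mki67 sequence, in 1 place each in Plk1 and Cdc20 and in none in Ccnb1, and CCAAT in 3, 1, 2 and 2 places. Of 34 mitosis genes with a promoter in the table, 25 (73.5%) hold TTTGAA, against 20.2% of all 27025 genes in the table and 14.1% of the 9613 of them tested at day 8. CCAAT was in 25 of 34 as well (73.5%), against 41.1% of all. CCAAT was as frequent in other lists, with 71.4% of the cell cycle inhibitors and 78.6% each of the lipogenesis and stress response genes. Of the 371 genes with a promoter in the table whose high libraries all lay above the low ones, 24.5% hold TTTGAA. A match is a string in a window, not a binding site.

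**Figure D2:**
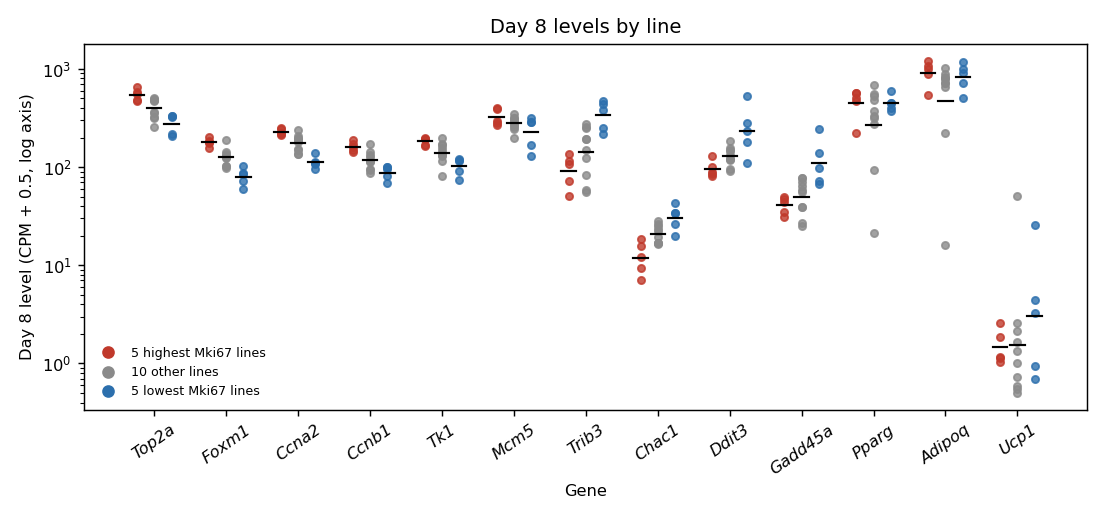
Day 8 levels of 13 genes in CPM + 0.5 on a log axis, 1 point per line, in red for the 5 high, grey for the 10 other and blue for the 5 low Mki67 lines, with a bar at the mean of the log values. The red and blue points do not overlap for Top2a, Foxm1, Ccna2, Ccnb1, Tk1, Trib3, Chac1 and Gadd45a and overlap for Mcm5, Ddit3, Pparg, Adipoq and Ucp1.

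Genes of DNA replication followed the ranking less closely than genes of mitosis. Of 38 on the list 37 passed the filter. In 8 all high libraries lay above all low ones (21.6%, against 3.62% of all tested genes), and in none below. Of the differences 31 were positive, and the median was 0.31. The separated genes were Tk1, Tyms, Clspn, Pola1, Fen1, Brca1, Mcm10 and Prim1. Tk1, the thymidine kinase of S phase, had 191, 198, 192, 167 and 163 CPM in D4, D3, A2, B4 and C5 and 122, 116, 117, 89.8 and 72.6 CPM in B5, D6, A6, B1 and B3, a difference of 0.84. Clspn, which carries the replication checkpoint signal, had 61.6 to 79.8 CPM against 31.7 to 55.7 CPM. Tyms, the thymidylate synthase, came close to overlap, with 86.7 CPM in D4 and 83.6 CPM in B5.

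The replicative helicase itself did not separate the groups. Mcm5, a helicase subunit, had 401, 280.1, 296, 265 and 391 CPM in the high lines and 290.3, 319, 290.4, 167 and 129 CPM in the low lines. B1 and B3 were low, and the other 3 low lines sat among the high ones. Mcm2 and Mcm3 had differences of -0.13 and -0.04. Rrm2, the ribonucleotide reductase subunit made in S phase, had 53.5 to 122 CPM in the high and 47.0 to 94.3 CPM in the low lines, with a difference of 0.22. Summed replication RNA overlapped, at 5032 to 6054 CPM in the high lines and 3641 to 5727 CPM in the low lines. Leaving out D6 raised the count of separated replication genes from 8 to 12.

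Among these genes Prim1, the primase subunit that starts new strands, separated the groups with 104 to 141 CPM against 77.6 to 101 CPM, and its promoter holds the E2F-type motif GGCGGGAA. The sequence lies at chr10:128014965-128015264 on the plus strand (RefSeq, GRCm38.p6), with the motif on either strand in capitals.
Prim1: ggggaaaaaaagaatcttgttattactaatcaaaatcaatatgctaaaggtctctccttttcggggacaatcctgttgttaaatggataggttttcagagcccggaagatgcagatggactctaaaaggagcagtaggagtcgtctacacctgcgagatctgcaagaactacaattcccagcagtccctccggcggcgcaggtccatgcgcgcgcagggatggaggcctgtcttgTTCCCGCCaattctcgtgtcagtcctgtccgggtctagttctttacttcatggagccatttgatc
The motif was in 7 of 31 replication genes with a promoter in the table (22.6%), in 0 of 34 mitosis genes, in 2.52% of all genes in the table and in 4.60% of those tested at day 8. Of these 7, Prim1 alone separated the groups, and Mcm3, Rfc4, Pold1, Rrm1, Uhrf1 and Chaf1a did not. The other separated replication genes, Tk1, Tyms, Clspn, Pola1, Fen1, Brca1 and Mcm10, lacked the motif in this window. TTTGAA was in 3 of the 31 replication genes (9.68%).

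Of the G1 cyclins, their kinases and the E2F and Rb families, 19 of 20 list members were in the files and all 19 were tested. The high libraries lay above the low ones in 5 (26.3%, against 3.62% of all tested genes), E2f8, E2f7, Skp2, Cdk4 and Cdc25a. They lay below in none, and the median was 0.34. Without C5 the count was 8, without B1 1 gene lay below, and with groups of 3 there were 10 above and 1 below. Over all tested genes the count above rose as well, from 546 to between 599 and 1022 without any 1 line, and it rose with groups of 3. E2f8, an E2F that represses E2F targets late in S phase, had 36.3, 40.2, 36.3, 34.5 and 39.9 CPM in the high lines and 20.5, 21.0, 20.7, 16.9 and 9.79 CPM in the low lines, a difference of 1.10. E2f7, its close relative, had 41.9 to 62.1 CPM against 17.4 to 35.6 CPM. E2f1, an activator, had a negative difference of -0.37 with overlapping groups. Ccne1, the cyclin of S-phase entry, came to 58.1 CPM in the lowest high line and 58.3 CPM in the highest low line.

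Ccnd1 and Myc, through which growth factors act on the cycle, did not follow the ranking. Ccnd1 had 4.73, 8.25, 4.29, 16.3 and 91.2 CPM in D4, D3, A2, B4 and C5 and 2.91, 3.44, 14.9, 7.64 and 10.1 CPM in B5, D6, A6, B1 and B3, so D4 with the most Mki67 had little Ccnd1 and C5 alone was high. Myc had 71.1 to 132 CPM in the high and 96.6 to 142 CPM in the low lines. In 25 tested immediate early and growth factor response genes the libraries separated in none, and the median was 0.16. It was -0.04 without C5, 0.25 without B3, 0.37 without D4 and -0.44 with groups of 3.

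Of 25 tested cell cycle inhibitors and p53 targets, 1 was separated in each direction (4% each). That is near the shares over all tested genes, 3.62% above and 2.51% below. The list median was -0.04, with -0.10 without C5 and 0.00 without B3. Without D4 2 were separated below and without B1 2 above, and leaving out a line raised both counts over all genes as well. Cdkn1a, the p21 inhibitor, had 284, 249, 195, 296 and 181 CPM in the high lines and 366, 354, 203, 264 and 289 CPM in the low lines, with overlap. Cdkn2a, whose locus encodes p16 and p19Arf, had 162 to 309 CPM against 201 to 346 CPM. Gadd45a, a stress-induced growth arrest gene, had 43.3, 48.8, 30.8, 46.6 and 34.3 CPM in the high lines and 137, 66.4, 72.2, 97.2 and 245 CPM in the low lines, a difference of -1.44. All 5 low lines lay above all 5 high ones for Gadd45a, B3 furthest. Trp53, the p53 gene, was the one with the high lines above, at 42.3 ± 9.90 against 32.6 ± 3.51 CPM (SD, n = 5).

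**Figure D3:**
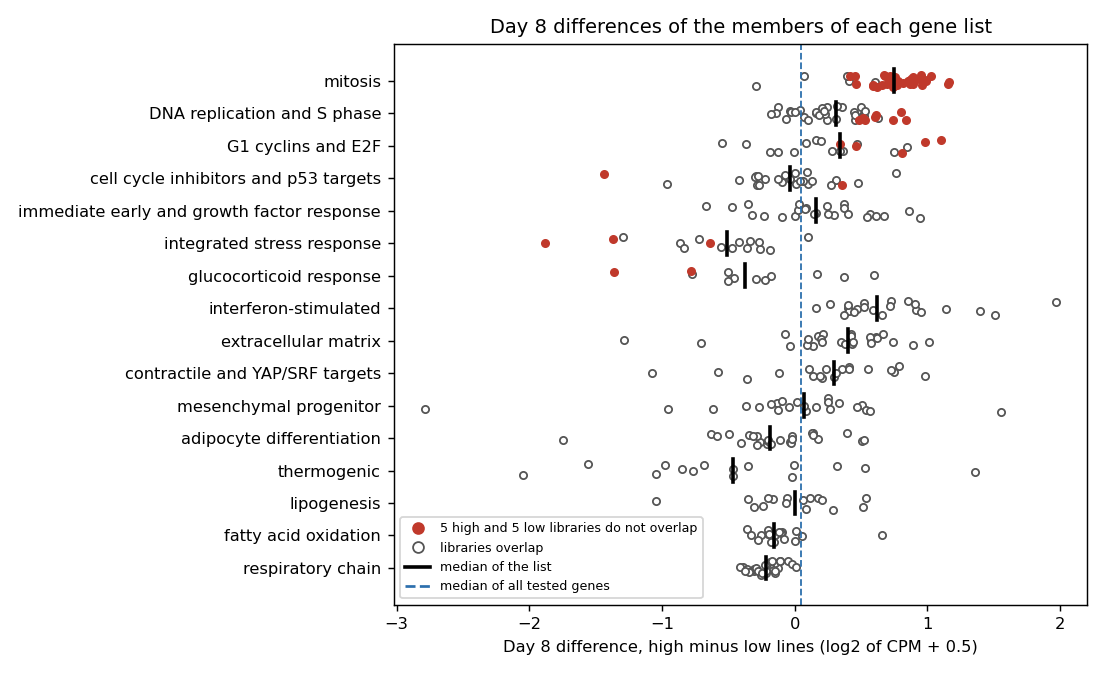
Day 8 difference between high and low lines in log2(CPM + 0.5) (horizontal axis) for the tested members of 16 gene lists (rows). Filled red points are genes whose 5 high and 5 low libraries do not overlap, the black bars are list medians and the dashed blue line is the median of all tested genes at 0.05; 34 of 39 mitosis genes are filled, and the median of the integrated stress response is -0.51.

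Genes of the integrated stress response leaned to the low lines. This pathway slows translation when amino acids are short or unfolded proteins accumulate and works through the factor Atf4 and its targets. All 16 list members were tested, 15 of the differences were negative and the median was -0.51. In 3 genes, Trib3, Chac1 and Hspa5, all high libraries lay below all low ones (18.75%, against 2.51% of all tested genes). Trib3, a pseudokinase induced by Atf4, had 136, 107, 115, 72.3 and 50.7 CPM in D4, D3, A2, B4 and C5 and 439.5, 383, 216, 252 and 469 CPM in B5, D6, A6, B1 and B3. Its difference of -1.88 (96.3 ± 34.3 against 352 ± 113 CPM, SD, n = 5) was larger in size than that of any other gene on this list. The highest of the high lines was D4, the line with the most Mki67.

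Chac1, a glutathione-degrading enzyme, had 17.8, 11.5, 6.52, 8.90 and 15.1 CPM in the high lines and 33.7, 33.2, 26.0, 19.2 and 42.4 CPM in the low lines, a difference of -1.37. Hspa5, the chaperone BiP of the endoplasmic reticulum, had 846 ± 132 against 1336 ± 335 CPM (SD, n = 5). Ddit3, the CHOP factor, had 128, 101, 79.8, 84.4 and 88.0 CPM against 281, 233, 109.5, 179 and 531 CPM, and A6 fell within the range of the high lines. Without B3 the list median was -0.39. Without D4, 7 of the 16 genes were separated and without A6 5, and with the 7 highest against the 7 lowest lines none was. These counts moved over all tested genes as well. There 379 lay below with all 10 lines, 708 without D4 and 422 to 708 without any 1 line, and fewer did with groups of 7.

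The promoters of Trib3 and Chac1 carry the composite element to which Atf4 and C/EBP factors bind together, TTNCATCA, here in capitals on either strand. They lie at chr2:152344011-152344310 on the minus strand and chr2:119350992-119351291 on the plus strand (RefSeq, GRCm38.p6).
Trib3: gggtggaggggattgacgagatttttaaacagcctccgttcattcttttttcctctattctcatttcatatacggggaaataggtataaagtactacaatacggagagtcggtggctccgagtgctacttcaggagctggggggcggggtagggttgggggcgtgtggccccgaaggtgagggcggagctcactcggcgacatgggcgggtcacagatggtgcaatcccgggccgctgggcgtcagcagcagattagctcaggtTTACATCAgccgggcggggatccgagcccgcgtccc
Chac1: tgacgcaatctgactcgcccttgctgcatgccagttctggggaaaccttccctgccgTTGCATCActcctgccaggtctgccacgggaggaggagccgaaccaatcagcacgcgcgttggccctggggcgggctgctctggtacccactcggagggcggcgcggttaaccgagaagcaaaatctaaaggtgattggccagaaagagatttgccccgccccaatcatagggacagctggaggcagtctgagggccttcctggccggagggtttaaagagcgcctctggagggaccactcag
The motif was in 5 of 14 genes of the stress list with a promoter in the table (35.7%), in 1 of 34 mitosis genes, in 4.51% of all and in 2.80% of those tested at day 8. TTTGAA was in 0 of the 14.

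The metallothioneins Mt1 and Mt2, which bind zinc and respond to glucocorticoids and metals, were also lower in the high lines. Mt2 had 105, 37.4, 94.4, 105 and 82.0 CPM in the high and 238, 219, 156, 158 and 284 CPM in the low lines, a difference of -1.36. Mt1 had 118 to 281 CPM against 307 to 375 CPM, a difference of -0.78. The 2 genes are close copies of each other, so that reads may be split between them. So 2 of 12 glucocorticoid response genes were separated below (16.7%), against 2.51% of all tested genes. The other 10 overlapped, and the median of the 12 was -0.38, or -0.20 without C5. Without D4, 4 of the 12 were separated, a setting in which 708 of all tested genes lay below against 379 with all 10 lines.

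Fat-cell genes did not separate the groups. None of 26 adipocyte differentiation genes had the groups apart, 7 differences were positive and the median was -0.19. The median was 0.02 without C5, -0.08 without B1, when 1 gene was separated, and 0.12 with the 3 highest against the 3 lowest lines, so its sign rests on C5. Pparg, the master factor of fat cells, had 569.6, 509, 566, 473 and 222 CPM in D4, D3, A2, B4 and C5 and 449.6, 452, 399.6, 601 and 376 CPM in B5, D6, A6, B1 and B3. Adipoq, which encodes the hormone adiponectin, had 1214, 883, 1068, 989 and 539 CPM in the high lines and 716, 999, 898, 1188 and 499 CPM in the low lines. D4 thus had both the most Mki67 and the most Adipoq of the 10 lines, and B3 had the least of both. Cebpa had 233 to 799.8 against 319 to 633 CPM, Plin1, the lipid droplet coat, 239 to 498 against 279 to 629 CPM, and Fabp4, the fatty acid carrier, 800.5 to 1659 against 1167 to 1542 CPM.

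Brown fat genes overlapped between the groups, at very different levels. Ucp1, the uncoupling protein of heat production, had 0.663, 0.542, 2.09, 1.34 and 0.637 CPM in the high lines and 0.450, 3.94, 0.201, 2.74 and 25.2 CPM in the low lines, with B3 far above the rest. Of 15 tested thermogenic genes none was separated, 3 differences were positive and the median was -0.47. It was -0.22 without C5, with 1 gene then separated above, -0.76 without D4, with 1 below, and -0.13 with groups of 3, with 3 above. Adrb3, the adrenergic receptor of fat cells, averaged 179 ± 87.0 CPM (SD, n = 5) in the high and 179.5 ± 91.4 CPM in the low lines. Cidea, a lipid droplet protein of brown fat, had 1.19 to 7.35 CPM against 2.39 to 105 CPM. Zic1, a marker of the brown fat lineage, had 34.0 to 37.5 CPM in 4 high lines and 25.3 to 31.6 CPM in 3 low lines, and 3.16 CPM in C5, 1.34 CPM in B1 and 0.736 CPM in B3.

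In lipogenesis (16 genes), fatty acid oxidation (19) and the respiratory chain (30) no gene was separated in either direction. The medians were 0.00, -0.15 and -0.22. Respiratory chain differences were small, with 1 of 30 positive. Without C5 the medians of oxidation and respiratory genes were 0.00 and -0.08, with 11 of 19 and 7 of 30 positive, and with groups of 3 they were 0.10 and 0.02. Without A2, 2 respiratory genes were separated below. The lipogenesis median was 0.11 without C5 and -0.02 without B3, and 1 gene was separated below without D4 and 1 without B5. Among the respiratory chain genes Sdhb, a subunit of complex II, had the largest difference, with 164 to 345 CPM in the high and 264 to 428 CPM in the low lines (-0.42). The largest in lipogenesis was that of Lpin1 (-1.045) and in oxidation that of Cpt1a (0.654), both with overlap. Fasn, the fatty acid synthase, had 1619.9 to 4826 CPM against 1274 to 4218 CPM.

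Matrix and contractile genes leaned to the high over the low lines, with overlap, but the 10 lines in between reached higher than either group. Summed matrix RNA ran from 7686 to 46110 CPM there, against 9303 to 27020 in the high and 8706 to 15650 in the low lines. Summed contractile RNA reached 6333 CPM there, 3828 in the high and 2947 in the low lines. Among 26 matrix genes 22 differences were positive with a median of 0.40 and none separated, and among 19 contractile and YAP/SRF target genes 15 were positive with a median of 0.29. The matrix median was 0.19 without C5, 0.20 without B4, 0.23 without D3 and 0.26 without D6, and with groups of 3 it was -0.36 with 5 genes separated below. From 1 to 2 matrix genes were separated above without D4, A2 or B1, and 1 contractile gene without D4 or A2; the contractile median was 0.46 without A2. Col1a1, a chain of type I collagen, had 349.8, 1808, 625, 1197 and 3209.7 CPM in the high lines and 396, 583, 1093, 829.7 and 994 CPM in the low lines. D4, the highest in Mki67, was the lowest of all 10 in Col1a1. Fbn1, a microfibril protein, had 101 to 429 against 69.1 to 222 CPM. Pdgfra, a preadipocyte receptor, had 38.2 to 414 against 55.7 to 223 CPM. The 23 mesenchymal progenitor genes had a median of 0.07. It was -0.37 without C5, with 1 gene separated, 0.19 without B3 and -0.67 with groups of 3. Members of this list went both ways, with 13 positive and 10 negative differences. Thy1 had a difference of -2.785, Cd34 one of -0.96 and Eng one of 1.55, all with overlap.

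Interferon-stimulated genes had positive differences in all 22 members, but none was separated. The median was 0.62. Oas2, an antiviral enzyme, had 1.72, 67.5, 5.25, 88.5 and 256 CPM in D4, D3, A2, B4 and C5 and 3.66, 2.15, 23.8, 51.8 and 10.8 CPM in B5, D6, A6, B1 and B3, so D4 and A2 lay with the lowest lines. Mx1, an interferon-induced GTPase, ran from 0.934 to 129 CPM in the high and from 0.661 to 12.2 CPM in the low lines. The median ran from 0.32 without C5 to 1.24 without D4 when 1 line was left out, and it was -0.64 with the 3 highest against the 3 lowest lines.

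Markers of other cell types ranged from 0 to well above the limit of detection. Ptprc, Emr1 and Tyrobp of immune cells were at 0 in all 10 day 8 libraries, and Cdh5, Tie1 and Cldn5 of endothelium reached 0.0471 CPM at most. Others of these lists were detected in all 10 lines. Egfl7 had up to 21.15 CPM, Kdr up to 14.1 CPM, Tek up to 4.02 CPM, Pecam1 up to 2.98 CPM and Cd68, of macrophages, up to 7.50 CPM. The groups did not overlap for Lyz2, an immune marker, at 0.550 to 4.55 against 0.147 to 0.540 CPM, nor for Esam, an endothelial marker below the filter, at 0.137 to 0.261 against 0.0288 to 0.0827 CPM. Myod1, Myog and Pax7 of muscle reached 0.116 CPM at most, and Myf5 reached 0.0579 CPM in the high and 0.345 CPM in the low lines. The 10 endothelial markers summed to 7.91 to 28.2 CPM in the high and 15.2 to 25.9 CPM in the low lines, and the 10 immune markers in the files to 2.59 to 8.59 and 3.72 to 8.72 CPM. The 11 skeletal muscle markers summed to 13.4 to 38.8 and 31.1 to 102 CPM, nearly all of it Des and Acta1, and the 9 Schwann and neural markers to 44.9 to 168 and 39.2 to 55.0 CPM. Of the neural markers Ngfr had 4.64 to 83.0 CPM in the high and 0.546 to 5.14 CPM in the low lines, with overlap. Its difference of 2.63 was the largest positive one of all tested genes, and of the 8 tested markers of this list 6 were positive and 2 negative. The 9 pericyte and smooth muscle markers, of which Pdgfrb, Notch3 and Mcam are also made by fibroblast-like cells, summed to 234 to 528 and 259 to 394 CPM. Their part in the differences was not tested. RNA of the Y-linked gene Eif2s3y was present in all 10 lines at 30.8 CPM or more and Xist stayed at 0.422 CPM or less.

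The separated genes with the largest differences included few cell cycle genes. Above, they were Glb1l2, Pcdhgc4, Robo1, 1700048O20Rik, Panx1, Hoxc10, Mxd3, Hist1h4i, Mns1 and Plekhg4, with differences from 1.40 to 2.03. Mxd3, a partner of Max in the Myc network, had 36.0, 45.8, 40.0, 49.2 and 41.1 CPM in the high and 18.3, 15.2, 19.2, 15.2 and 8.42 CPM in the low lines. Panx1, a membrane channel, had 5.85 to 10.9 CPM against 1.03 to 3.65 CPM, and Robo1, a Slit receptor, 3.32 to 13.9 against 0.662 to 2.85 CPM. Plekhg4 had 32.9 CPM in C5 and 2.26 to 4.25 CPM in the other high lines. Hist1h4i and Pcdhgc4 share sequence with other genes of their clusters, so their counts are uncertain.

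Below, the largest were Spatc1, Car6, Sh2d6, Hrk, Stbd1, 0610010O12Rik, Cbr3, Aldoc, Trib3 and Arhgap33, with differences from -1.85 to -2.56. Aldoc, a glycolytic aldolase, had 10.6, 5.47, 4.62, 2.47 and 2.37 CPM in the high and 15.4, 15.9, 13.7, 24.1 and 24.1 CPM in the low lines. Stbd1, a glycogen-binding protein, had 14.5 to 33.9 CPM against 56.0 to 256 CPM. Hrk, a BH3-only protein that promotes apoptosis, had 0.165 to 1.43 CPM against 2.52 to 9.56 CPM. B3 stood far above its group in several of them, as in Spatc1, where it had 83.3 CPM and the other low lines 3.60 to 8.09 CPM.

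Before induction no gene set the later high lines apart from the later low lines by the test. Of 13885 genes tested with edgeR's quasi-likelihood test over the 20 undifferentiated libraries, 0% were called at an adjusted p under 0.05 (0 higher and 0 lower). At an unadjusted p under 0.05 there were 421 (3.03%), and limma and DESeq2 also called 0, with 316 and 473 at that level. That uncorrected count moved with the grouping: it was 1215 (8.54%) with groups of 3, 1678 (12.2%) with groups of 7 and 2173 (15.3%) against log2 day 8 Mki67 over 20 lines, where 1 gene was called, and leaving out 1 line gave from 163 without B3 to 942 without B5. All 5 high libraries lay above all 5 low ones in 33 genes (0.238%) and below in 9 (0.0648%), against 3.62% and 2.51% at day 8. None of the 39 tested mitosis genes was called, 20 of 39 were positive, the median difference was 0.00 and none had an unadjusted p under 0.05.

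Single mitosis genes gave the same picture in the values. Foxm1 had 346, 332, 353, 355 and 313 CPM in the undifferentiated high lines and 340.1, 363, 332, 367 and 380.3 CPM in the low lines. Top2a had 703 to 903 CPM against 595 to 849 CPM, and Ccna2 323 to 400.2 CPM against 342 to 373 CPM. Trib3 was at 7.06 to 8.51 CPM in the high lines, and at 8.43, 10.4, 6.98, 5.60 and 24.3 CPM in B5, D6, A6, B1 and B3, so the low line B3 stood out before induction as well. The stress list had 0 calls, 4 of 16 positive and a median of -0.13. Of 26 adipocyte differentiation genes 16 passed the filter on low counts before induction. Adipoq was at 0.0465 CPM or less in all 10 lines, whereas Pparg was at 11.9 to 123 CPM in the high and 38.8 to 60.4 CPM in the low lines.

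The genes with the smallest p before induction missed the threshold, each with an adjusted p of 0.995 in edgeR. Fhdc1, a formin-family protein, had 121, 135, 130.4, 129 and 118 CPM in the undifferentiated high lines and 98.9, 61.0, 102, 42.3 and 35.3 CPM in the low lines, without overlap. S100a16, a calcium-binding protein, was high in D4 and B4 with 74.3 and 28.7 CPM and at most 3.49 CPM in the low lines. Slc14a1, a urea transporter, had 8.28, 56.7 and 30.0 CPM in D6, B1 and B3 and at most 0.549 CPM in the high lines. Tmem86a was on the higher side, and Slc22a23 and Cplx2 on the lower side. At day 8 the high and low lines overlapped in each of these genes, and Fhdc1 had 5.37 to 29.0 CPM in the high and 3.45 to 13.3 CPM in the low lines.

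The interferon-stimulated genes went the other way before induction than at day 8 with groups of 5. With groups of 3 the day 8 median was negative too (-0.64, with 4 of 22 positive). All 19 tested members were negative, against 48.6% of all tested genes, with a median of -1.15. In edgeR 5 had an unadjusted p under 0.05, against 3.03% of all tested genes, and none of them was called. Levels were low. Ifit1, an inhibitor of translation of foreign RNA, averaged 7.89 CPM in the high and 26.5 CPM in the low lines, with an edgeR adjusted p of 0.995 and an unadjusted p of 0.0568. At day 8 it averaged 269 ± 227 CPM (SD, n = 5) in the high and 99.2 ± 61.9 CPM in the low lines.

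**Figure D4:**
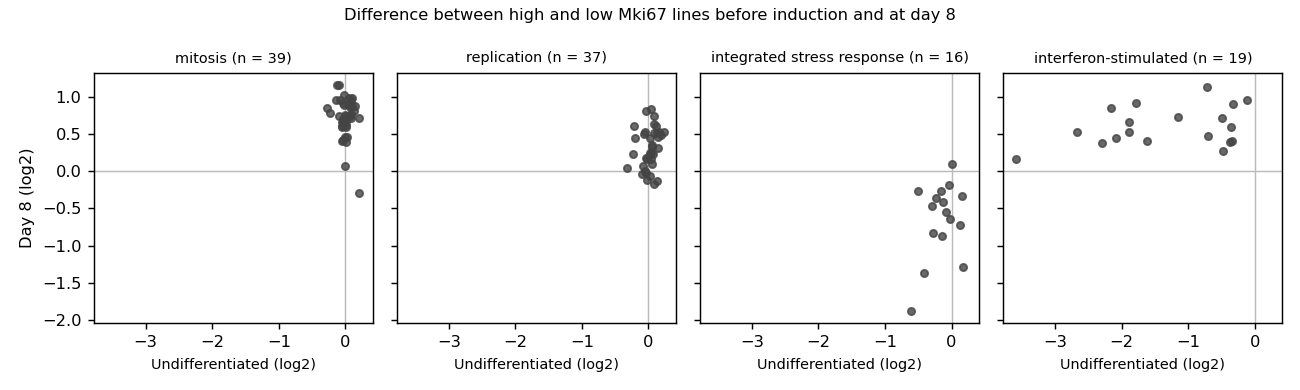
Difference between high and low Mki67 lines before induction (horizontal axis, edgeR log2 fold change) and at day 8 (vertical axis, difference in mean log2(CPM + 0.5)) for genes of 4 lists, 1 point per gene. Mitosis genes lie above 0 at day 8 in 38 of 39 cases and close to 0 before induction, and all 19 interferon-stimulated genes shown lie left of 0.

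Over all 20 lines and without groups, no relation of Mki67 before induction with Mki67 at day 8 was detected (Pearson's r = -0.154, p = 0.513, Spearman's rho = -0.123, p = 0.603, n = 20, 100000 permutations, two-sided; the Benjamini-Hochberg adjusted values over 3 relations were 0.513 and 0.603). It did go with Pparg at day 8 (r = 0.688, permutation p = 0.00052, adjusted 0.00156; rho = 0.687, p = 0.00125, adjusted 0.00375). Without D6 and D5, the lines farthest from the median of undifferentiated Mki67, r was 0.673, and without C6 and D5, the lines lowest in Pparg at day 8, it was 0.601. For Adipoq r was 0.539 (permutation p = 0.0126, adjusted 0.0189) and rho was 0.457 (p = 0.0450, adjusted 0.0675), and without D6 and D5 r was 0.505. Without C6 and D5 it was 0.255 (permutation p = 0.306), so the relation with Adipoq rests on those lines.

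**Figure D5:**
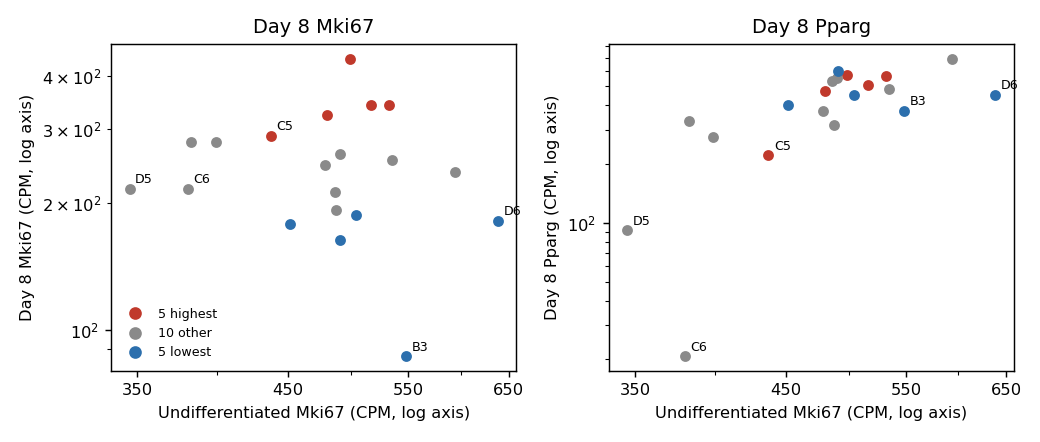
Undifferentiated Mki67 in CPM (horizontal log axis) against day 8 Mki67 (left) and day 8 Pparg (right) in CPM on log axes, 1 point per line, red for the 5 high, grey for the 10 other and blue for the 5 low lines. On the left the red and blue points are mixed along the horizontal axis (r = -0.154), and on the right C6 and D5 lie at the bottom (r = 0.688).

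The 10 lines between the groups were used to ask whether the same genes went with Mki67 among lines in neither group. The same ranking by day 8 Mki67 placed them in the middle and so narrowed its range. In these lines Mki67 spanned only 193 to 279 CPM. Of 15167 genes tested at day 8 with edgeR against log2 Mki67, 0% were called (0 positive and 0 negative), with 684 at an unadjusted p under 0.05, and limma called 0 with 595. DESeq2 called 11 positive and 3 negative genes. Of 38 mitosis genes other than Mki67, 34 had positive slopes (89.5%), against 49.2% of genes tested in both fits, with a median of 0.49 log2 units per doubling of Mki67. The 6 mitosis genes with an unadjusted p under 0.05 were all positive.

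Foxm1 had a slope of 1.10 ± 0.37 (SE, unadjusted p = 0.0139) and Ccnb1 one of 1.11 ± 0.39 (unadjusted p = 0.0185), both with an edgeR adjusted p of 0.998. Replication genes had 31 of 37 positive slopes and a median of 0.44. Among the stress genes 9 of 16 slopes were positive with a median of 0.13, and Trib3 had a slope of 1.07 ± 1.51 (SE, unadjusted p = 0.495). Respiratory chain genes were positive in 27 of 30 and matrix genes in 2 of 26. C6 and D5 stood apart in these genes, with 93.4 and 131 CPM of Sdhb against 185 to 455 CPM in the other middle lines, and 1484 and 1238 CPM of Fbn1 against 103 to 625 CPM. Without these lines the respiratory slopes were positive in 0 of 30, the adipocyte slopes in 3 of 26 in place of 23, the stress slopes in 6 of 16 with a median of -0.21 and the matrix slopes in 4 of 26 with a median of -0.58. Mitosis slopes were then positive in 38 of 38 with a median of 1.02, replication slopes in 36 of 37 with a median of 0.73, and 50.3% of all genes had positive slopes. Of the 543 genes with high libraries above low ones that were in this fit, 55.8% had positive slopes, and of the 375 with them below, 46.4% had negative slopes, beside 49.1% and 50.9% of all genes tested.

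Genes with the smallest p in the middle lines missed the threshold in edgeR. Fancd2, of the Fanconi pathway of DNA crosslink repair, had a slope of 1.43 ± 0.32 (adjusted p = 0.998), and it also had all high libraries above the low ones, at 41.4 to 58.0 CPM against 29.7 to 40.7 CPM. Nol7, a nucleolar protein, and Eepd1 had slopes of 1.38 and 2.14. Ctla2a, Hsd17b7 and Npr3 had negative slopes, of which Ctla2a came closest, with an adjusted p of 0.103.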

How the data were processed

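The deposited values are raw read counts per gene, 1 column for each library, made with STAR and HTSeq on mm9 per the submitters' processing notes; no version of either tool is known here, nor whether counting used strand, so reads of a gene and its antisense partner may not be separated. Unaligned and low-quality reads are tallied as 0 in the day 8 files only. The undifferentiated files hold 29955 gene symbols and the day 8 files 29915, of which 29912 are shared and 29830 were kept after leaving out 82 that differ from another only in letter case. Rows that name no gene were left out of library sizes.

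CPM used the sum of gene counts. Differences at day 8 are means of log2(CPM + 0.5) and are untested, since the ranking used these libraries. Undifferentiated groups, and day 8 genes against log2 Mki67 in the 10 middle lines, were tested with edgeR 4.0.16 (quasi-likelihood, TMM, filter with a minimum count of 10, Benjamini-Hochberg, threshold 0.05) in R 4.3.3. limma 3.58.1 and DESeq2 1.42.0, other scalings, filters, group sizes, a pseudocount of 0.1 and leaving out each line were alternatives. The fits were tested on simulated data. Promoters came from a RefSeq table of GRCm38.p6, and no coordinates were taken from the deposited files.

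Named genes were the 10 largest separated differences in each direction (average of 5 CPM or more in whichever group was higher), up to 3 per gene list by size of difference, a short list of always-named genes, and the 3 smallest p in each direction of a fit with no calls. Other genes were named after their values were seen, among them Pttg1, Mad2l1, Plk1, Cdc20, Prim1, Hspa5, Trp53, Ifit1, Lyz2, Esam, Kdr, Adrb3, E2f1 and Mcm2. The members and the gene lists were chosen with earlier results of these data known.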

Additional observations from a re-analysis of the deposited data

Results flagged for a closer look

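In 216 checks of a named gene within the 5 high or the 5 low lines (all at day 8, but for Mki67 also before induction), 31 had 1 line far from the other 4, each of them at day 8. The check used plain CPM, and its chance rate of about 1 in 20 such groups holds only for normally distributed values. Whether CPM values follow that was not tested, so the 31 cannot be set against this rate. The same lines recur. C5 stood apart among the high lines in Hist1h4i (22.9 CPM), Plekhg4 (32.9 CPM), Ccnd1 (91.2 CPM), Zic1 (3.16 CPM), Dcn (678 CPM), Ankrd1 (69.1 CPM), Cd34 (222 CPM), Ngfr (83.0 CPM), Pparg (222 CPM), Fhdc1 (29.0 CPM) and Slc14a1 (1.10 CPM). C5 was the high end in all of these but Zic1 and Pparg, where it was the low end.

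B3 stood apart among the low lines in Spatc1 (83.3 CPM), Car6 (32.3 CPM), Sh2d6 (23.7 CPM), 0610010O12Rik (39.7 CPM), Cbr3 (198 CPM), Egfl7 (21.2 CPM), Myc (142 CPM), Ucp1 (25.2 CPM), Hsd17b7 (65.7 CPM) and, as the lowest, Mki67 itself (86.9 CPM).

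Other lines stood apart less often. D3 did so in Glb1l2 (21.9 CPM) and Ccne1 (81.2 CPM), D4 in Elovl3 (21.5 CPM) and Cdk1 (352 CPM), A2 in Pck1 (72.2 CPM) and S100a16 (35.9 CPM), and B4 in Ctla2a (39.7 CPM). Among the low lines D6 did so in Pck1 (139 CPM), A6 in Fhdc1 (13.3 CPM) and B1 in Slc14a1 (5.35 CPM).

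The shift of Ccnb1 between stages differed between the groups. The day 8 minus undifferentiated difference was 0.46 ± 0.17 (log2, SD, n = 5) in the high and -0.24 ± 0.19 in the low lines, above 0 in 5 of 5 and in 0 of 5. The stages were counted differently, so neither sign can be read as a direction, and only the gap of 0.70 between the groups is comparable. It was not tested, and the day 8 values entered the choice of lines through Mki67 of the same libraries. Such a gap is not particular to Ccnb1. Other named genes had wider ones, among them Foxm1 (-0.93 in the high and -2.16 in the low lines) and Mxd3 (0.10 and -1.46).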

How the results depend on the processing

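The count of genes separated at day 8 depends on the size of the groups. With the 3 highest against the 3 lowest lines 1724 genes lay above and 1130 below, and with 7 against 7 there were 197 and 73, since fewer samples separate more easily. Leaving out 1 line gave 599 to 1022 above and 422 to 708 below, with 1022 and 708 without D4 and 648 below without B1. The mitosis list held 31 separated genes with 7 lines and 37 with 3. Undifferentiated Mki67 differed by 0.058 with groups of 3 (exact permutation p = 0.6), the opposite sign to the reported difference, and by -0.14 to -0.016 when 1 line was left out. With log2 day 8 Mki67 as a covariate 1 undifferentiated gene was called lower. In the middle lines DESeq2 called 11 genes higher and 3 lower, and 1 was called lower without the count filter; leaving out each middle line in turn, a choice made after seeing the data, gave 0 calls each time. The relation with day 8 Adipoq was 0.255 (permutation p = 0.306) without C6 and D5. The causes were not tested. Of 1712 alternative values for 107 named genes, 1707 moved by less than the spread between lines, and 5 moved further, all with groups of 3: Trib3, Dusp6, Egr2, Cd34 and Oas1a, of which Egr2 and Oas1a changed sign. No paired analysis was possible because the high and low groups hold different lines. Ranking by TMM-scaled CPM gave the same 10 lines.

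Each line has 1 library per stage, so the spread between cultures of a line is not known.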
